A study of Homo sapiens with 18 samples.

Results

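The genes described here are 36 genes of the cellular response to low oxygen and of glycolysis, taken as a named list and followed through 18 RNA-seq libraries of cultured human K562 cells. They are 36 of the 24408 genes in the deposited counts, and 35 of them were among the 14720 genes with enough counts to be tested. The exception, ADM, encodes the secreted peptide adrenomedullin and held 44 counts in all libraries together, between 0 and 14 in each. K562 is an established erythroleukaemia line that makes embryonic and fetal globins. The study used it to ask what a CRISPR repressor does when it is brought to HS2, an enhancer that lies far from the globin genes it acts on, and no comparison of oxygen levels was part of the design.

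The 18 libraries form 6 groups of 3. Cells of the group KRAB_no_gRNA carried dCas9-KRAB, a Cas9 that cannot cut DNA joined to the KRAB repressor domain, and no guide RNA (gRNA). Cells of dCas9_CR4 and dCas9_CR10 carried dCas9 without KRAB, together with the HS2 gRNA named CR4 or CR10. Cells of KRAB_CR4 and KRAB_CR10 carried dCas9-KRAB with CR4 or CR10. Cells of no_lentivirus are labelled as carrying neither a transduced gene nor a gRNA, although their treatment text is the one given for transduced cells, so they are taken as untransduced from their titles and labels of gene and gRNA. Lentivirus was added with 4 µg/ml polybrene, and selection with 1 µg/ml puromycin began about 96 hours later, so all 5 lentiviral groups also share the virus, its resistance gene and the drug. All cells grew in RPMI1640 with 10% serum at 37 °C and 5% CO2, and the labels give no oxygen level. The titles number the libraries of each group 1 to 3 without saying what a number marks or whether the libraries came from separate transductions, so p-values measure the spread between these libraries, which may be technical.

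As background, the transcription factors HIF-1α (HIF1A) and HIF-2α (EPAS1) are marked for destruction in oxygen by the prolyl hydroxylases EGLN1 and EGLN3, and in low oxygen they persist, pair with ARNT and raise the transcription of genes that carry their binding sequence. Those genes include most enzymes of glycolysis, the glucose transporter SLC2A1, the growth factor VEGFA and PDK1, which keeps pyruvate out of mitochondria. HIF is controlled mainly through the stability of its protein, which RNA-seq does not measure.

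Library totals ran from 22805964 to 34032962 counts, and from 22805964 to 26179446 in the lentiviral libraries numbered 3. Those 5 libraries stood apart from the lentiviral libraries numbered 1 and 2 over the whole transcriptome, and untransduced library 2 stood apart from untransduced libraries 1 and 3. Results that rest on them are given with and without them below. HBE1, a globin gene controlled by HS2, was lower than in KRAB_no_gRNA by 2.89 ± 0.14 (SE) on the log2 scale in KRAB_CR4 and by 2.43 ± 0.14 in KRAB_CR10, the direction the labels imply. All 10 markers of K562 cells were detected in every library. Among 12 markers of other cell types, EPCAM was the highest, at 80.7 to 115 CPM, while MS4A1 and KRT5 were at 0 in all 18 libraries and CDH5 was at 0 in 17. In bulk RNA, a change in every cell and a change in the share of cells cannot be told apart, nor can fewer cells of a type and less RNA per cell.

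The core enzymes of glycolysis were the most abundant members. Compared per kilobase of transcript, GAPDH, which oxidises glyceraldehyde 3-phosphate, had the highest level, with a median over 18 libraries of 1350 CPM per kilobase (CPM are counts scaled to a common library total). ENO1 followed at 1010 and ALDOA at 917 CPM per kilobase, and the lactate dehydrogenase subunits LDHA and LDHB were at 545 and 386. For hexokinase, aldolase and enolase, 1 isozyme was far above the others measured here. HK1, the constitutive hexokinase, was at 338 CPM per kilobase and HK2, the inducible one, at 29.9. ALDOC was at 27.3 against 917 for ALDOA, and ENO2 at 3.63 against 1010 for ENO1. Phosphofructokinase RNA was spread over 3 genes, with PFKP at 55.0, PFKL at 27.9 and PFKM at 20.1 CPM per kilobase. Both main glucose transporters were present, SLC2A1 at 101 and SLC2A3 at 71.8. HIF1A, at 15.0 CPM per kilobase, was above EPAS1, at 1.92. ANKRD37, NDRG1 and SLC16A3 were close to the lower limit of testing, with values between 0.62 and 4.09 CPM in every library.

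**Figure D1:**
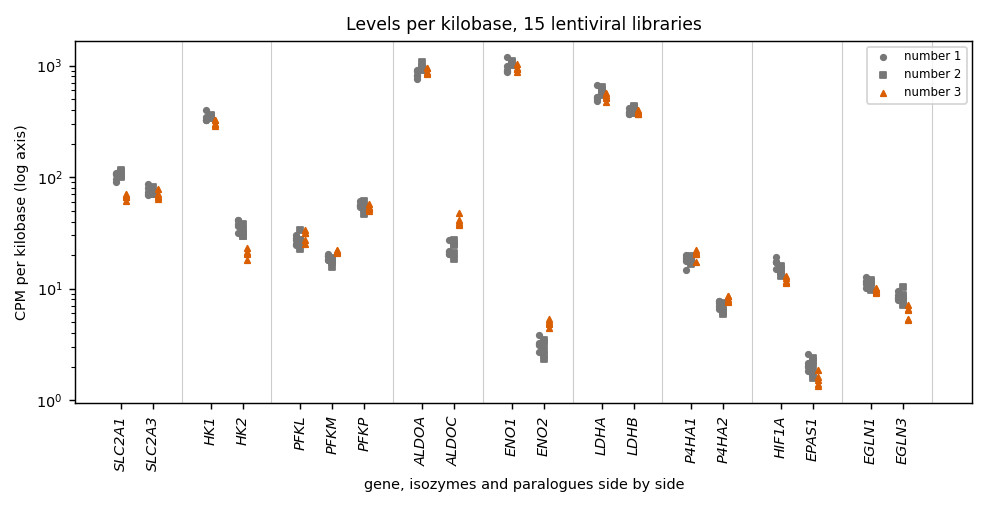
Level of isozymes and paralogues in CPM per kilobase of transcript (logarithmic axis), 1 point for each of the 15 lentiviral libraries, with circles for libraries numbered 1, squares for 2 and orange triangles for 3. HK1, ALDOA and ENO1 lie far above HK2, ALDOC and ENO2, and the triangles of ALDOC and ENO2 lie above, and those of HK2 and SLC2A1 below, the other symbols.

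These levels have limits that belong to the counting. The deposited counts of a gene were spread almost evenly over its transcripts (each of the 18 VEGFA transcripts held between 4.81% and 6.07% of its counts), so isoforms such as those of PKM were not read. Named pseudogenes exist for 16 members, 65 for GAPDH and 46 for BNIP3, and how reads that fit both were handled is not stated. SLC2A14, a near-identical copy of SLC2A3, held 7322 counts against 142230 for SLC2A3. The libraries do not mark the strand, so reads of HIF1A and of HIF1A-AS2 (28160 and 1394 counts) cannot be told apart where they overlap.

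HIF binds the hypoxia response element, whose core is ACGTG or GCGTG. Both cores were searched on both strands in the 250 bases before the annotated start of each gene, in RefSeq promoters of GRCh38.p14 that held 32 of the 36 members. VEGFA, BNIP3L, NDRG1 and SLC2A3 are the 4 that were not matched. ACGTG was present in 12 of the 32 promoters (37.5%) and in 18.5% of all 35116 promoters of that length. GCGTG was present in 11 (34.4%, against 32.2% of all), and either core in 19 (59.4%, against 43.2% of all). The 6 promoters below belong to the matched members with the smallest p in the comparison of libraries numbered 3, described further on, of which ALDOC, MXI1, PDK1 and ENO2 were higher there and SLC2A1 and HK2 lower. Each is printed 5′ to 3′ in the direction of the gene, and capitals mark every ACGTG or GCGTG on either strand (CACGT and CACGC are these cores read from the opposite strand).
ALDOC promoter (chr17:28576896-28577145, - strand): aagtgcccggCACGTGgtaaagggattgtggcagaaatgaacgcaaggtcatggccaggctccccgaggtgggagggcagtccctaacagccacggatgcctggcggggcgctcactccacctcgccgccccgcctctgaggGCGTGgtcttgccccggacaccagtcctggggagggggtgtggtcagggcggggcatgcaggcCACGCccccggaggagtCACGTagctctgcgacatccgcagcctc
MXI1 promoter (chr10:110207355-110207604, + strand): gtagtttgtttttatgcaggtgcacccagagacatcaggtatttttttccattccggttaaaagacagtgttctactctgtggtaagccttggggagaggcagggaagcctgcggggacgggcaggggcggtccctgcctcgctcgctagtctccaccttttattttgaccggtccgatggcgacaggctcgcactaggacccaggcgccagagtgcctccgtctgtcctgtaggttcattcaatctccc
PDK1 promoter (chr2:172555123-172555372, + strand): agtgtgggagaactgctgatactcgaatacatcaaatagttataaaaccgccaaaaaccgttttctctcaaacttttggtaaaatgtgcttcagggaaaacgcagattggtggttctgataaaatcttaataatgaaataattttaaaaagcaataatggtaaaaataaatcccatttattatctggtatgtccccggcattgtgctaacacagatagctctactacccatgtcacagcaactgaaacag
ENO2 promoter (chr12:6914330-6914579, + strand): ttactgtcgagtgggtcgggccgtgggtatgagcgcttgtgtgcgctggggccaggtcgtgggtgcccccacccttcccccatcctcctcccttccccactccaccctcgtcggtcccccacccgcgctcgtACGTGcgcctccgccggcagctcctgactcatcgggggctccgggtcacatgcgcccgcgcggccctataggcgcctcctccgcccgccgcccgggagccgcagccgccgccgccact
SLC2A1 promoter (chr1:42958869-42959118, - strand): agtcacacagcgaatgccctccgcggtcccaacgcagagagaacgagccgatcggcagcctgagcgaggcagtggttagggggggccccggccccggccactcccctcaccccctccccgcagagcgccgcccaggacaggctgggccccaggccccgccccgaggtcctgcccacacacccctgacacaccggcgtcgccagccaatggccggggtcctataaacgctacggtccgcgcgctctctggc
HK2 promoter (chr2:74833877-74834126, + strand): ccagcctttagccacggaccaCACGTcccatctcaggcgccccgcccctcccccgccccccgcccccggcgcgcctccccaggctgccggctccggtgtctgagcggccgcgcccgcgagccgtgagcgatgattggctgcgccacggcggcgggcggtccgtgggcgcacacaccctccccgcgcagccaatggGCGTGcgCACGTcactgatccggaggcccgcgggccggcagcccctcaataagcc
ALDOC, which encodes the aldolase of brain, held 3 ACGTG and 2 GCGTG matches. Its CACGTG, 240 to 235 bases before the start, is a palindrome and was counted once on each strand. The ENO2 promoter had 1 ACGTG, 118 to 114 bases before the start, and the HK2 promoter had 2 ACGTG and 1 GCGTG. No match was found in these windows of MXI1, PDK1 and SLC2A1, which says only that the letters are not there. Of the promoters matched, either core was in 3 of the 8 whose genes were higher in libraries numbered 3, in 6 of the 10 whose genes were lower, and in 10 of the 14 that did not pass, ADM among them. Promoters with and without a core were therefore found in each of these sets.

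Whether the repressor at HS2 touched these genes was asked in 8 comparisons among the lentiviral groups. In all 8, none of the 35 tested members passed the edgeR quasi-likelihood test at a Benjamini-Hochberg adjusted p under 0.05, and the DESeq2 test called none either. Neither model had a term for the library number, so differences by number count as spread within groups in these tests. Against KRAB_no_gRNA, the percentage of all genes called was 0.0204% for KRAB_CR4 and 0.0204% for KRAB_CR10. Against dCas9 with the same gRNA it was 0.0204% for CR4, 0.0204% for CR10 and 0.0272% for the mean of the pair. It was 0% for dCas9 with a gRNA against KRAB_no_gRNA, for KRAB_CR4 against KRAB_CR10 and for the difference between the KRAB effects of the gRNAs. At an unadjusted p under 0.05 there was 1 member for KRAB_CR10 against KRAB_no_gRNA (with 1.49% of all genes), 1 for KRAB_CR4 against dCas9_CR4 (0.999%) and 1 for KRAB against dCas9 over both gRNAs (1.26%). There were 0 members for KRAB_CR4 against KRAB_no_gRNA (1.71%), KRAB_CR10 against dCas9_CR10 (0.496%), dCas9 against KRAB_no_gRNA (0.673%), KRAB_CR4 against KRAB_CR10 (0.897%) and the difference of KRAB effects (0.346%).

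Against KRAB_no_gRNA, the 3 members with the smallest p in KRAB_CR4 were ANKRD37, P4HA1 and LDHB. P4HA1, a subunit of the collagen prolyl hydroxylase and a known HIF target, read 41.5, 46.6 and 48.8 CPM in KRAB_no_gRNA and 56.9, 52.9 and 58.4 CPM in KRAB_CR4. Every KRAB_CR4 library was the higher, by 0.30 ± 0.18 (SE) on the log2 scale, with an edgeR adjusted p of 0.999. ANKRD37, an ankyrin-repeat gene induced by HIF-1, read 1.62, 1.75 and 1.46 CPM without a gRNA and 1.38, 0.62 and 1.22 CPM in KRAB_CR4, a log2 difference of -0.58 ± 0.31. LDHB differed by -0.14 ± 0.09.

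In KRAB_CR10 the 3 were PFKFB4, PFKL and P4HA1. PFKFB4, a bifunctional enzyme that sets the level of fructose 2,6-bisphosphate, read 19.6, 16.7 and 17.2 CPM in KRAB_no_gRNA and 15.1, 13.5 and 12.3 CPM in KRAB_CR10. The groups did not overlap, and the log2 difference was -0.39 ± 0.18 with an unadjusted p of 0.0459 and an adjusted p of 0.999 by edgeR. P4HA1 read 54.2, 55.8 and 60.9 CPM in KRAB_CR10, again above all 3 KRAB_no_gRNA libraries, with a log2 difference of 0.32 ± 0.18. PFKL, the liver-type phosphofructokinase, differed by -0.25 ± 0.14. Non-overlapping libraries were found for 4 members (11.4%) in KRAB_CR4 and 7 members (20%) in KRAB_CR10, against 6.8% and 8.87% of all genes. The dCas9 groups, compared with the same KRAB_no_gRNA libraries, gave 0.25 ± 0.16 for P4HA1. Its mean in KRAB_no_gRNA, 45.6 CPM, was the lowest of the lentiviral groups. These differences reuse the same KRAB_no_gRNA libraries and are not independent, and P4HA1 passed in none of these comparisons.

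Between KRAB and dCas9 with the same gRNA, NDRG1 had the smallest p with CR4. NDRG1, a stress-responsive gene that hypoxia induces in many cell types, read 1.01, 1.81 and 1.01 CPM in dCas9_CR4 and 1.90, 1.77 and 3.26 CPM in KRAB_CR4. These groups overlapped, and the log2 difference was 0.85 ± 0.37 with an unadjusted p of 0.035 by edgeR. ANKRD37 (-0.61 ± 0.31) and GAPDH (0.23 ± 0.16) came next. With CR10 the 3 members were SLC2A3 (0.13 ± 0.12), PFKL (-0.14 ± 0.14) and PFKP (0.10 ± 0.11), all with overlapping libraries. Over both gRNAs NDRG1 (0.58 ± 0.26, unadjusted p = 0.0397 by edgeR), ANKRD37 (-0.42 ± 0.21) and GAPDH (0.17 ± 0.11) led. The 95% interval of the GAPDH difference over both gRNAs ran from -0.08 to 0.42 on the log2 scale.

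Of the remaining comparisons, dCas9 with a gRNA against KRAB_no_gRNA was led by NDRG1 (-0.51 ± 0.31), P4HA1 and SLC2A3 (-0.15 ± 0.10). KRAB_CR4 against KRAB_CR10 was led by ANKRD37 (-0.54 ± 0.31), PFKL (0.19 ± 0.14) and HK1 (0.13 ± 0.11). In that comparison 30 of 35 members had a positive difference, with a median of 0.09, beside 8227 of all 14720 genes and a median of 0.02, and none passed. Against KRAB_no_gRNA, 26 of 35 members had a negative difference in KRAB_CR10, 25 of 35 in the dCas9 groups and 16 of 35 in KRAB_CR4. Of all 14720 genes, 7913, 7530 and 7451 were negative in the same order. The difference between the KRAB effects of the gRNAs was led by PFKP (-0.18 ± 0.15), NDRG1 (0.54 ± 0.52) and ANKRD37 (-0.38 ± 0.43). These comparisons share libraries with those above and are not independent of them.

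**Figure D2:**
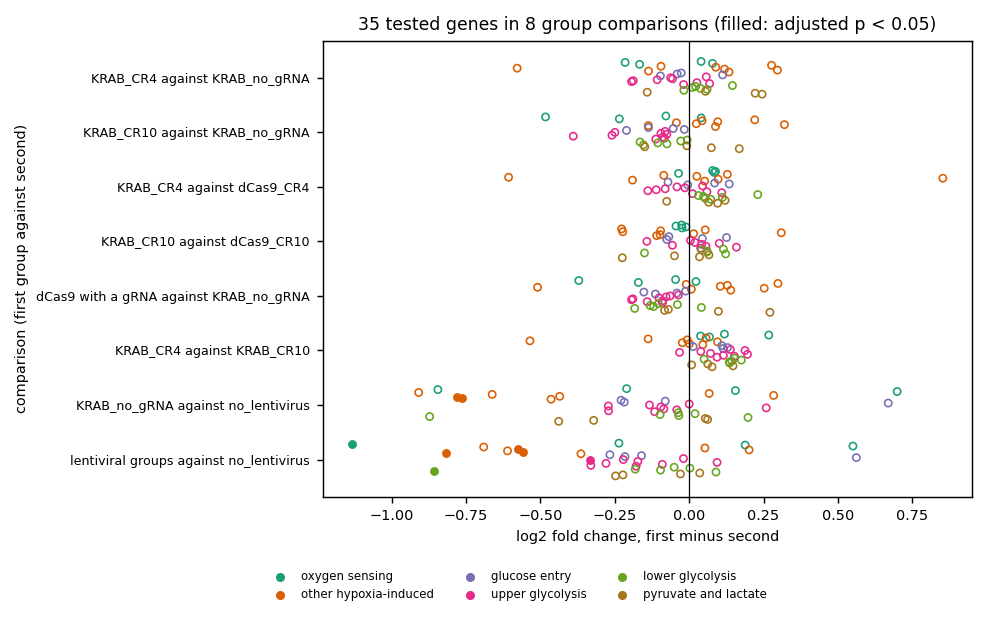
Log2 fold change of the 35 tested members (horizontal axis) in 8 comparisons between groups (1 line each), coloured by role, with filled circles for an adjusted p under 0.05. All circles of the first 6 comparisons are open, and the filled ones in the comparisons with no_lentivirus, 2 and 6 in number, lie to the left of 0.

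By library number the members differed more in the median, and many more passed. The median absolute log2 difference was 0.19 for libraries numbered 3, against 0.05 to 0.11 in the 8 comparisons above. The largest differences were of like size, 0.86 by number and 0.85 in KRAB_CR4 against dCas9_CR4. The 5 lentiviral libraries numbered 3 were compared with the 10 numbered 1 and 2, within groups. Of the 35 members, 20 passed the edgeR test, 10 higher and 10 lower in libraries numbered 3. Of all 14605 genes tested there, 53.8% passed, 27.9% higher and 25.9% lower, so the members' share was near that of genes at large. The libraries did not overlap for 9 members (25.7%), against 20.8% of all genes. The median log2 difference was -0.04 for the members and 0.03 for all genes. By role, all 4 oxygen-sensing genes and 3 of 4 glucose-entry genes were lower, while 5 of 8 other hypoxia-induced genes were higher. Every one of the 20 had the same sign in all 5 groups. They were picked by a test on these same libraries, which favours equal signs, so this is not separate support. GAPDH, PGK1, PKM and PFKFB4, which did not pass, also kept their sign in all 5 groups.

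**Figure D3:**
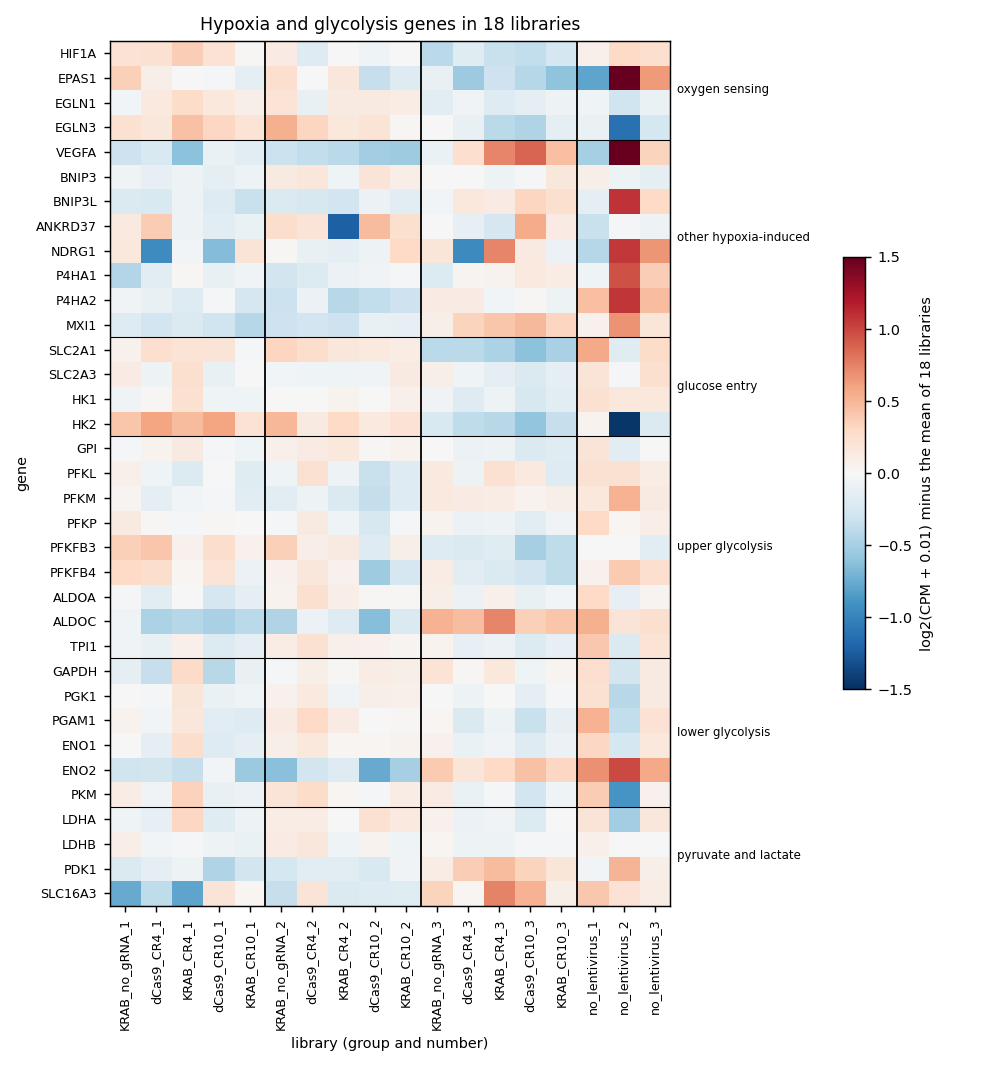
Level of the 35 tested members (vertical axis, by role) in 18 libraries (horizontal axis, ordered by number and then the untransduced libraries), as log2(CPM + 0.01) minus the mean of the 18 libraries, with colours ending at ±1.5. The block numbered 3 is red for VEGFA, MXI1, ALDOC, ENO2 and PDK1 and blue for SLC2A1 and HK2, and untransduced library 2 has the deepest colours of the plot.

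All 4 members placed under oxygen sensing were lower, which did not hold for HIF regulators outside the members. Of these, VHL (log2 0.49 ± 0.07), ARNT (0.16 ± 0.07) and HIF3A (1.02 ± 0.30, at means of 1.38 and 0.69 CPM) were higher in libraries numbered 3. HIF1AN (-0.25 ± 0.07) and EGLN2 (-0.20 ± 0.06) were lower. HIF1A, the α subunit that hydroxylation controls, read 42.9, 49.7, 44.8, 43.9 and 47.2 CPM in the libraries numbered 3 of KRAB_no_gRNA, dCas9_CR4, KRAB_CR4, dCas9_CR10 and KRAB_CR10, the order used for number 3 throughout. The 10 others ran from 49.5 through a median of 59.4 to 73.3 CPM. The sets touched at 1 point only, where dCas9_CR4 library 2 lay just under dCas9_CR4 library 3. HIF1A was lower by 0.38 ± 0.07 (SE) on the log2 scale, a 1.30-fold difference with an edgeR adjusted p of 1.26e-04. EPAS1, its paralogue best known in endothelium and in cells that make erythropoietin, read 9.68, 7.14, 8.40, 7.75 and 6.86 CPM against 8.21, 10.5 and 13.4 CPM (lowest, median and highest of the others). Its sets overlapped, and its log2 difference was -0.39 ± 0.09 (adjusted p = 7.28e-04). EGLN3, a hydroxylase that is itself induced by HIF in many cells, read 19.1, 17.8, 14.5, 14.1 and 17.5 CPM against 19.4, 22.3 and 27.8 CPM. No library numbered 3 reached any of the others, and the log2 difference was -0.46 ± 0.09 (adjusted p = 2.20e-04). EGLN1, the main hydroxylase that marks HIF-α, differed by -0.22.

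Among the other hypoxia-induced genes, VEGFA, MXI1, BNIP3L, P4HA2 and P4HA1 were higher, and BNIP3, ANKRD37 and NDRG1 did not pass. VEGFA, which drives vessel growth, read 96.8, 122.9, 172, 189 and 142 CPM against a lowest of 67.7, a median of 81.4 and a highest of 96.8 CPM. KRAB_no_gRNA library 3 was level with the highest of the others, dCas9_CR10 library 1, and the remaining 4 were above it. VEGFA rose 1.78-fold (log2 0.83 ± 0.10, edgeR adjusted p = 1.27e-06). By group its difference ran from 0.22 in KRAB_no_gRNA to 1.24 in KRAB_CR4, and whether groups differ in this was not tested. MXI1, a partner of MAX that opposes MYC, read 41.2, 49.1, 52.0, 54.5 and 48.8 CPM against 28.8, 31.9 and 36.04 CPM. All 5 were above all 10, by 0.61 ± 0.07 (adjusted p = 5.07e-07).

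BNIP3L, a receptor for the removal of mitochondria, including in maturing red cells, read 49.0, 56.1, 55.0, 63.1 and 59.6 CPM against 39.8, 43.2 and 47.8 CPM. It also did not overlap, and rose by 0.39 ± 0.06 (adjusted p = 3.69e-05). Its paralogue BNIP3 had a difference of 0.03 ± 0.06, with a 95% interval from -0.11 to 0.16, and whether the paralogues differ in this was not tested. The collagen hydroxylase subunits P4HA2 and P4HA1 were higher by 0.26 and 0.19. P4HA1 lost its call without dCas9_CR4 library 3 (adjusted p = 0.0601) or dCas9_CR10 library 3 (0.0648).

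Of the 4 glucose-entry genes SLC2A1, HK2 and HK1 were lower and SLC2A3 did not pass. SLC2A1, the transporter GLUT1, read 258, 257, 245, 222 and 243 CPM against 334, 386 and 424 CPM. The sets were far apart, and SLC2A1 fell 1.54-fold (log2 -0.62 ± 0.06, edgeR adjusted p = 3.37e-08). HK2, which phosphorylates the glucose that enters and is bound to mitochondria, read 134, 121, 118, 104 and 124 CPM against 172, 201 and 237 CPM. It fell 1.66-fold (log2 -0.73 ± 0.07, adjusted p = 9.65e-08), again with no overlap. Both are textbook HIF-1 targets, and both moved opposite to VEGFA, MXI1 and PDK1. HK1 was lower by 0.14, a call it lost without any 1 of the libraries numbered 3 other than that of KRAB_no_gRNA (adjusted p from 0.0543 to 0.0776), with halved counts (0.0765) and with a filter at a mean of 50 counts (0.0836). Counts were halved because every deposited count is even. SLC2A3, the transporter GLUT3, had a difference of -0.08 ± 0.06 that did not pass.

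In the upper part of glycolysis 2 genes were higher, 2 lower and 5 did not pass. ALDOC, whose promoter is printed above, read 82.0, 78.5, 94.6, 73.2 and 75.9 CPM against 36.6, 42.7 and 54.4 CPM. No libraries overlapped, and ALDOC rose 1.81-fold (log2 0.86 ± 0.08, edgeR adjusted p = 2.71e-08), the smallest p of any member. Its abundant isozyme ALDOA read 1434 ± 91.6 CPM (SD, n = 5) in libraries numbered 3 and 1438 ± 139 CPM (n = 10) in the others, a log2 difference of 0.02 ± 0.05. PFKFB3, which makes the activator fructose 2,6-bisphosphate, read 34.0, 33.2, 34.2, 27.5 and 29.7 CPM against 34.0, 42.0 and 51.6 CPM. Only dCas9_CR10 library 2 among the others lay as low, and PFKFB3 fell by 0.44 ± 0.07 on the log2 scale (adjusted p = 3.68e-05). PFKM, the muscle-type phosphofructokinase, was higher by 0.25 and did not overlap, whereas PFKL (0.15 ± 0.08) and PFKP (-0.04 ± 0.06) did not pass. GPI, the isomerase between the kinases, was lower by 0.14, and lost its call without library 3 of KRAB_CR4 (adjusted p = 0.0599), dCas9_CR10 (0.0638) or KRAB_CR10 (0.0699), with halved counts (0.0636) and with the filter at 50 counts (0.0728). TPI1 and PFKFB4 did not pass. PFKFB4 passed without KRAB_CR4 library 1 (0.0377) or dCas9_CR10 library 2 (0.0114), and PFKL without dCas9_CR4 library 2 (0.0227) or 3 (0.0356), with halved counts (0.0476) and with the filter at 50 counts (0.0451).

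The lower part of the pathway gave 1 higher gene, 1 lower gene and 4 that did not pass. ENO2, the neuronal enolase, read 12.5, 10.8, 11.7, 12.9 and 11.9 CPM against 5.67, 7.65 and 9.27 CPM. The sets did not overlap, and ENO2 rose 1.65-fold (log2 0.72 ± 0.10, edgeR adjusted p = 4.56e-06). ENO1, the abundant enolase, differed by -0.07 ± 0.06 and did not pass. PGAM1, the phosphoglycerate mutase, was lower by 0.16, a call lost without library 3 of dCas9_CR4 (adjusted p = 0.087), KRAB_CR4 (0.0519) or dCas9_CR10 (0.0618), with halved counts (0.0522) and with the filter at 50 counts (0.061). GAPDH (0.13 ± 0.08), PGK1 (-0.06 ± 0.06) and PKM (-0.13 ± 0.06) did not pass. Their 95% intervals lay between -0.28 and 0.31. GAPDH passed, higher, without KRAB_CR4 library 1 (0.18 ± 0.06, adjusted p = 0.0114), and PKM passed, lower, without KRAB_CR4 library 2 (0.0216), dCas9_CR4 library 1 (0.0467) or KRAB_CR10 library 1 (0.0423).

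At the exit of the pathway, PDK1 and SLC16A3 were higher and both lactate dehydrogenase genes did not pass. PDK1, the kinase that switches off pyruvate dehydrogenase, read 43.4, 51.7, 55.9, 50.8 and 45.5 CPM against 29.5, 35.2 and 38.7 CPM. Every library numbered 3 was above every other library, by 0.52 ± 0.07 (edgeR adjusted p = 2.37e-06). SLC16A3, the lactate exporter MCT4, rose by 0.60 from a level near 1 CPM, with values of 1.68 to 2.77 CPM against 0.95 to 1.89 CPM. This call was lost without KRAB_no_gRNA library 3 (adjusted p = 0.0532) or KRAB_CR4 library 3 (0.111). LDHA, which makes lactate, differed by -0.08 ± 0.07 and LDHB by -0.02 ± 0.05. The 8 members that passed outside the 12 smallest p (PFKM, P4HA2, P4HA1, EGLN1, SLC16A3, PGAM1, GPI and HK1) had adjusted p between 9.35e-04 and 0.0302.

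**Figure D4:**
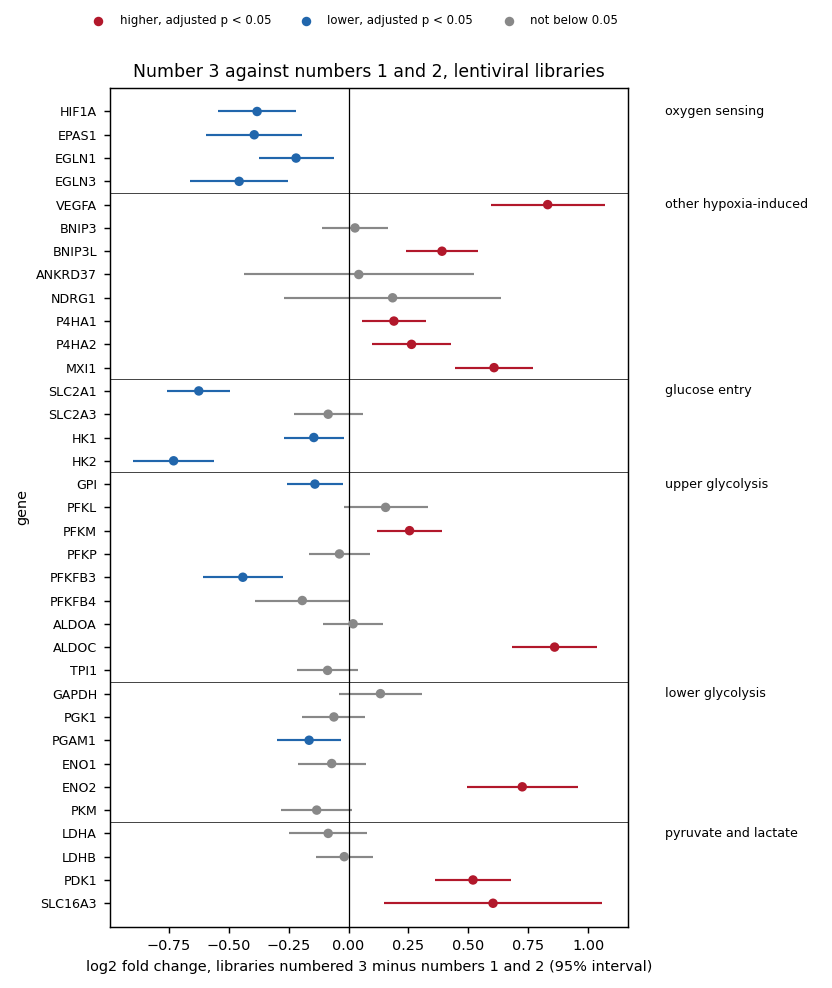
Log2 fold change of libraries numbered 3 against those numbered 1 and 2 (horizontal axis, point) with its 95% interval (line) for the 35 tested members (vertical axis, by role), in red for higher, blue for lower and grey for an adjusted p not under 0.05. Oxygen sensing and glucose entry lie left of 0, other hypoxia-induced genes at or right of 0, and the enzymes of the lower pathway near 0 except ENO2.

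**Figure D5:**
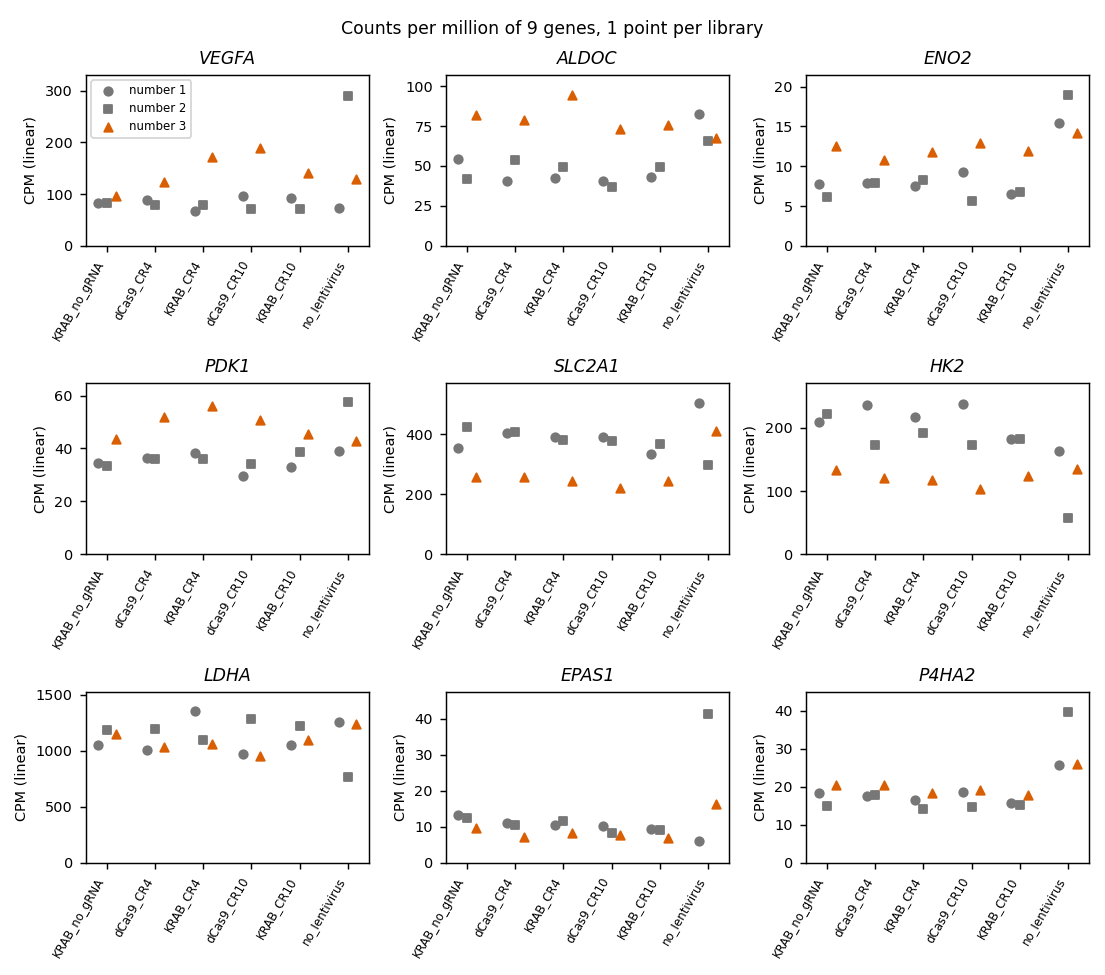
CPM (vertical axis, linear from 0) of 9 members in each of 18 libraries, by group (horizontal axis) and number (circle 1, square 2, orange triangle 3). In the 5 lentiviral groups the triangles lie above the grey symbols for ALDOC, ENO2 and PDK1, below them for SLC2A1 and HK2, and among them for LDHA. The untransduced group has its own order, with library 2 at an end for all 9 members.

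Other genes of the pathways were counted from lists made for this purpose, with earlier results of these data known. Of all genes, 27.9% were higher and 25.9% lower in libraries numbered 3. Of 25 tested genes known as HIF regulators or targets outside the members, 8 were higher and 9 lower in libraries numbered 3. The 5 with the smallest p were DDIT4 (log2 2.33 ± 0.10), STC2 (1.09 ± 0.09), BHLHE40 (0.80 ± 0.08), VHL (0.49 ± 0.07) and AK4 (-0.39 ± 0.06). VHL encodes the ligase subunit that recognises hydroxylated HIF-α, and DDIT4 restrains mTORC1 in hypoxia and in other stresses. Targets moved both ways here too, as AK4, WSB1, CITED2 and KDM3A were lower while DDIT4, STC2 and BHLHE40 were higher. Of 26 tested genes of sugar and pyruvate metabolism outside the members, 8 were higher and 5 lower, led by PGAM5 (-0.70 ± 0.08), SLC2A4 (0.89 ± 0.13), LDHD (2.03 ± 0.30), SLC16A7 (0.90 ± 0.15) and SLC16A1 (-0.31 ± 0.06). SLC16A1, the lactate transporter MCT1, and SLC16A3 thus had opposite signs.

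Other lists differed along with the members, beside the same 27.9% of all genes higher and 25.9% lower. These lists were chosen with earlier results of these data known, the stress list for values that move with a result. Their counts are therefore not independent of these data. Of 17 tested genes of the amino acid and endoplasmic reticulum stress response, which ATF4 directs and which include DDIT4 and STC2, 16 were higher in libraries numbered 3. Their summed level was 2576 to 4361 CPM there, 1744 to 2012 CPM in the other lentiviral libraries and 2273 to 6978 CPM in the untransduced ones. Of the K562 markers 6 of 10 were lower, and their sums of 2074 to 3732 and 2731 to 4445 CPM overlapped. Of the markers of other cells, 5 of 7 tested were higher, with sums of 170.8 to 189 CPM against 143 to 182 CPM. The part of any of these in the differences of the members was not tested. The labels name no batch. How library totals ran with the number differed between groups. KRAB_CR4 libraries 1, 2 and 3 held 24356480, 23529200 and 23552520 counts, and those of dCas9_CR4 held 32364862, 29310828 and 22805964. For VEGFA, ALDOC and HK2 the log2 difference of library 3 was 1.24, 1.04 and -0.79 in KRAB_CR4. It was 0.55, 0.74 and -0.74 in dCas9_CR4. The part of depth in the differences by number was not tested.

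Libraries numbered 2 were also compared with those numbered 1. None of the 35 members passed the edgeR test, with 1.05% of all genes called by that test. At an unadjusted p under 0.05 by edgeR there were 8 members, beside 20% of all genes. DESeq2 called 3 members (ALDOA, TPI1 and BNIP3). The share of all genes called by DESeq2 is not given here, so that count cannot be read as particular to the members. ALDOA read 1425, 1285, 1457, 1218 and 1321 CPM in the libraries numbered 1 and 1496, 1706, 1547, 1465 and 1462 CPM in those numbered 2. The latter were all higher, by 0.21 ± 0.06 on the log2 scale (edgeR adjusted p = 0.0796). TPI1 (0.20 ± 0.06, adjusted p = 0.0872) and BNIP3 (0.22 ± 0.07, adjusted p = 0.0968) came next and overlapped. Without KRAB_CR4 library 1, in which LDHA, GAPDH and ENO1 were at their highest among lentiviral libraries, 5 members passed (ALDOA, ENO1, GAPDH, LDHA and TPI1), all higher in number 2. The share of all genes called without that library is not given here.

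Lentiviral cells were compared with untransduced cells in the mean of the 5 lentiviral groups. Of the 35 members 6 were lower in the lentiviral groups and 0 higher, with 18.7% of all genes called, 11.2% lower and 7.55% higher. The members' median was -0.18, against 0.01 for all genes. P4HA2 read 25.7, 39.6 and 26.0 CPM in untransduced libraries 1, 2 and 3, and from 14.2 through a median of 17.8 to 20.6 CPM in the 15 lentiviral libraries. No lentiviral library reached an untransduced one, and P4HA2 was 1.76-fold lower (log2 -0.82 ± 0.13, edgeR adjusted p = 0.00129). ENO2 read 15.4, 18.9 and 14.1 CPM untransduced and 5.67, 7.91 and 12.9 CPM (lowest, median, highest) with lentivirus. It did not overlap either, at -0.86 ± 0.23 (adjusted p = 0.0164).

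Untransduced library 2 was the highest of all 18 libraries for each of the 6 genes, P4HA2 and ENO2 included, and for the other 4 genes the groups overlapped. EPAS1 read 6.01, 41.4 and 16.2 CPM untransduced and 6.86, 9.68 and 13.4 CPM with lentivirus, so untransduced library 1 was the lowest of all and library 2 the highest. Its log2 difference was -1.13 ± 0.30 (edgeR adjusted p = 0.017), and without untransduced library 2 it was -0.21 ± 0.26 (adjusted p = 0.727). P4HA1 read 53.9, 108.9 and 72.7 CPM against 41.5, 54.2 and 62.5 CPM, a difference of -0.56 ± 0.14. BNIP3L read 45.5, 106.8 and 62.0 CPM against 39.8, 45.2 and 63.1 CPM, a difference of -0.57 ± 0.18. PFKM read 69.4, 89.2 and 67.9 CPM against 48.4, 60.3 and 68.7 CPM, a difference of -0.33 ± 0.11. Without untransduced library 2 these 3 were -0.25, -0.17 and -0.20 with adjusted p of 0.26, 0.653 and 0.42, and ENO2 was -0.73 ± 0.27 with an adjusted p of 0.156. P4HA2 alone then passed, at -0.58 ± 0.13 (adjusted p = 0.0324). BNIP3L and PFKM were near the threshold, and were called in 15 and 13 of 25 alternatives. Without untransduced library 1, VEGFA (-1.06 ± 0.33, adjusted p = 0.0306) and NDRG1 (-0.94 ± 0.26) were called lower and EGLN3 (0.74 ± 0.25) higher.

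Without the lentiviral libraries numbered 3, a setting chosen after seeing the data, 13 members were called against untransduced cells, 11 lower and 2 higher. The share of all genes called in this setting is not given here, so the count cannot be read as particular to the members. The 7 that were added belong to the members that differed by library number, apart from PFKL. Leaving those libraries out shifts the lentiviral mean of such genes, so this match is not a separate result. VEGFA (log2 -1.04 ± 0.26), ALDOC (-0.69 ± 0.12), MXI1 (-0.61 ± 0.13), PDK1 (-0.43 ± 0.12) and PFKL (-0.29 ± 0.10) were lower in the lentiviral groups by edgeR. HK2 (0.75 ± 0.23) and EGLN3 (0.67 ± 0.18) were higher.

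KRAB_no_gRNA alone against no_lentivirus, which uses the same untransduced libraries, gave 2 members lower and 0 higher, with 6.63% of all genes called, 3.76% lower and 2.87% higher. They were P4HA1 (log2 -0.78 ± 0.18, edgeR adjusted p = 0.025) and P4HA2 (-0.76 ± 0.18, adjusted p = 0.0259). In KRAB_no_gRNA P4HA2 read 18.2, 15.1 and 20.5 CPM, all below the 3 untransduced values, as did P4HA1. Both calls were lost without untransduced library 2 (adjusted p = 0.133 and 0.151), without KRAB_no_gRNA library 1 (0.104 and 0.09) and without KRAB_no_gRNA library 2 (0.0707 and 0.0981), and P4HA1 also without KRAB_no_gRNA library 3 (0.0532) or untransduced library 3 (0.0534). Without untransduced library 1, 5 members passed, BNIP3L, EGLN3 and EPAS1 being added, and the share of all genes called in that fit is not given here.

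Among the untransduced libraries themselves, number 2 was the highest for 14 of the 35 members, the lowest for 18 and in the middle for 3. It was at an end for 91.4% of members and for 85.4% of all genes. VEGFA read 73.3, 290.1 and 129.9 CPM and NDRG1 1.46, 4.09 and 3.11 CPM in libraries 1 to 3. The abundant enzymes went the other way: PKM read 1117, 464 and 896 CPM, LDHA 1260, 764 and 1239 CPM, and GAPDH 2502, 1726 and 2292 CPM. HK2 read 163, 56.9 and 135 CPM, and library 2 was the lowest of all 18 for it. Untransduced library 2 was thus at once the library with the most VEGFA, EPAS1 and BNIP3L RNA and the one with the least HK2, PKM and LDHA RNA. Its sign against untransduced libraries 1 and 3 matched that of the lentiviral libraries numbered 3 for 26 of 35 members (74.3%), beside 68.3% of all genes. EPAS1 and HIF1A were among the exceptions, being higher in untransduced library 2 and lower in the libraries numbered 3.

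The same lists, chosen with earlier results of these data known, were counted against untransduced cells too, beside the 18.7% of all genes called. Of 25 other HIF regulators and targets, CITED2 (log2 0.58 ± 0.14), FAM162A (0.55 ± 0.14) and WSB1 (0.54 ± 0.16) were higher in the lentiviral groups, and ARNT (-0.47 ± 0.10), the partner of HIF-α, and PLOD2 (-0.62 ± 0.19), a collagen lysyl hydroxylase, were lower. Of 26 other genes of sugar and pyruvate metabolism, GAPDHS (1.16 ± 0.35) and TIGAR (0.59 ± 0.19) were higher and PGD (-0.39 ± 0.08) lower. Of the stress list 7 of 17 genes were lower in the lentiviral groups and 0 higher, and its sum was 2273 to 6978 CPM in untransduced libraries against 1744 to 4361 CPM in lentiviral ones. Of the K562 markers 5 of 10 were lower, namely HBE1, HBG1 and HBG2, which are the genes under HS2, with GATA1 (-0.39 ± 0.08) and ALAS2 (-0.93 ± 0.11), and their sums were 2980 to 4623 CPM untransduced and 2074 to 4445 CPM with lentivirus. Of the markers of other cells, 2 of 8 tested were lower, LYZ (-0.89 ± 0.27) and PECAM1 (-0.63 ± 0.16), with sums of 168 to 188 CPM against 143 to 189 CPM. The part of these lists in the differences of the members was not tested.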

How the data were processed

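Poly(A) RNA of K562 cells was made into 18 transposase-fragmented libraries that do not mark the strand, per the labels' protocols. The authors deposited raw counts per RefSeq transcript (40709 per library, every count even). The build was hg19 and the tools listed were DESeq, R 3.1.2, Picard, SAMtools and Bowtie2, per the submitters' processing notes; the counting tool is not given in the sources used here. Transcripts were summed to genes, with 99.02% of counts under a gene symbol from RefSeq or GENCODE tables. Counts were filtered (filterByExpr), scaled by TMM and tested with edgeR 4.0.16 (R 4.3.3; quasi-likelihood, Benjamini-Hochberg over all genes, threshold 0.05), in 1 model of 6 group means for 10 comparisons, and, for the library numbers, in 15 lentiviral libraries with the group as covariate. A negative log2 difference means lower in the group or number named first. Levels are TMM-scaled CPM. Standard errors come from the F statistic. Transcript lengths are from GENCODE v29. No 2 libraries were duplicates (chi-square per degree of freedom between 8.30 and 97.9 within groups). Intervals cover counting error and library spread only, since the reads carry no molecular identifiers.

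The members and all lists were chosen with earlier results of these data known. Values per library are given for members that passed, with full statistics for the 12 smallest p in a comparison. Where none passed, the 3 smallest p are given, and up to 5 genes per other list. For libraries numbered 3, WSB1, CITED2, KDM3A, ARNT, HIF3A, HIF1AN and EGLN2 were named after their values were seen. Deviations from group means over 12611 genes correlated above 0.1 in all 30 pairs of same-numbered lentiviral libraries (0.15 to 0.84). They did so in 5 of 15 same-numbered pairs with an untransduced library. Lentiviral libraries numbered 1 and 2 also correlated above 0.1 across groups, in 18 of 20 pairs (-0.12 to 0.57). A correlation above 0.1 therefore does not tell number 1 from number 2. Same-numbered lentiviral libraries were read as paired, and untransduced libraries were not. The main model of the 10 group comparisons had no term for this pairing, so the spread by number is part of their standard errors and p-values. Alternatives were RLE factors, DESeq2 1.42.0, other filters, halved counts, the replicate block, fewer groups, libraries numbered 1 and 2 only, and each library left out. The code was tested on simulated data.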

Additional observations from a re-analysis of the deposited data

Results flagged for a closer look

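Among the 5 lentiviral libraries of one number, 105 sets of values were searched for a single library far from the other four (Dixon's test), and 6 were found; chance gives about 1 in 20. KRAB_CR4 library 1 had 1475 CPM of HK1 against 1199 to 1272 in the others numbered 1, and 1361 CPM of LDHA against 975 to 1054. KRAB_no_gRNA library 1 had 54.4 CPM of ALDOC against 40.7 to 43.0. Among libraries numbered 2, dCas9_CR4 had 68.7 CPM of EGLN1 against 80.3 to 85.4, KRAB_CR4 had 0.62 CPM of ANKRD37 against 1.67 to 2.03, and KRAB_CR10 had 318 CPM of SLC2A3 against 276 to 282.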

How the results depend on the processing

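In the 8 comparisons among lentiviral groups the count of members called was 0 under every alternative run, the replicate block on the 15 lentiviral libraries included. For libraries numbered 3 it stayed between 16 and 22, with 15 of 20 members called in all alternatives and 0 reversed; P4HA1, HK1, GPI, PGAM1 and SLC16A3 were lost in some. Number 2 against 1, with 0 called, gave 2 without a filter on low counts, 3 with DESeq2, and 0 to 5 with 1 library left out. The shares of all genes called in these runs are not given here.

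Calls against untransduced cells depended on the settings; the cause was not tested. KRAB_no_gRNA against no_lentivirus, with 2 called, gave 0 when only these groups were fitted, 5 with the replicate block on all 18 libraries (BNIP3L, EGLN3 and ENO2 added), 5 with lentiviral libraries numbered 1 and 2 only (chosen after seeing the data), and 0 to 5 with 1 library left out. All lentiviral groups against no_lentivirus, with 6 called, gave 10 with the block, 13 with numbers 1 and 2 only, and 1 to 9 with 1 library left out, the lowest without untransduced library 2. Fitting only the groups compared is the same model for the last comparison and was not run apart. Shares of all genes called under these alternatives are not given here.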
